A study of Homo sapiens with 282 samples.

Results

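Etoposide at 6 h was compared with its vehicle in OCI-Ly3, an established human B cell lymphoma line. The comparison took every array whose label named etoposide at 0.811 or 0.812 uM and 6 h, pooled as 1 dose (6 arrays, 3 per label), and every array labelled DMSO, 1%, 6 h (8 arrays). These 14 arrays are part of a series of 282, in which the line was exposed to 14 drugs, vehicle or medium for 6, 12 or 24 h. Cells grew in multi-well plates, were treated 12 h after seeding and gave RNA well by well, and expression was read on Affymetrix HT HG-U219 array plates. Both groups held the same line in the same medium, with no other agent named. The line is 1 tumour's, so all values describe that line. The labels do not say whether the wells of a group came from separate cultures, so the spread between arrays may be technical. Levels are log2 intensities, on which a difference of 1 is a 2-fold change. Each of 18239 genes was represented by 1 probe set, the brightest on average across the series.

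Etoposide traps topoisomerase II on DNA after the enzyme has cut both strands, and leaves double strand breaks with the enzyme bound to their ends. Such breaks activate the kinases ATM and ATR, which stabilise the transcription factor p53. Genes activated by p53 include inhibitors of the cell cycle, death receptors, repair enzymes and the factors that switch p53 off again. Many genes needed for mitosis are repressed when the cycle stops, in part through repressor complexes that bind a short promoter element called the cell cycle homology region.

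The 6 etoposide arrays had median log2 intensities of 5.78 to 5.80 and the 8 DMSO arrays of 5.59 to 5.81. DMSO replicate 2 was the lowest of these and stood apart from the rest. No array of 6 h was of low signal. Of the 7 B cell markers measured, CD74, HLA-DRA and IRF4 were bright (13.10, 13.23 and 13.16 under DMSO), PAX5 was at 7.23, and CD79A, CD79B and MS4A1 were dim (5.02, 4.94 and 4.64, where the median over genes was 6.52). The 8 T cell, 8 monocyte and 10 fibroblast and epithelial markers were below that median in 7, 8 and 9 cases. The mean level of the T cell list lay between 5.15 and 5.33 on etoposide arrays and between 5.17 and 5.30 on DMSO arrays, of the monocyte list between 3.94 and 4.05 and between 3.94 and 4.02, and of the fibroblast and epithelial list between 4.52 and 4.59 and between 4.56 and 4.67. In these 4 marker lists limma called 0 genes between etoposide and DMSO. At an unadjusted p under 0.05 it gave 1 B cell marker and 0 of the others, beside 3486 of all 18239 genes.

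At 6 h, 800 genes rose and 699 fell under etoposide at an adjusted p under 0.05, which is 4.39% and 3.83% of the genes tested. For 358 of the risen genes all 6 etoposide arrays lay above all 8 DMSO arrays, and for 301 of the fallen genes all lay below. Most differences were small: the median size among called genes was 0.26, 15 genes rose by at least 1 and 19 fell by at least 1. The median difference over all genes was -0.004, and the median standard error (SE) of a difference was 0.079. Leaving out DMSO replicate 2 gave 1218 called genes in place of 1499. In these bulk samples, fewer cells of a type and less RNA per cell cannot be told apart.

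The 12 largest rises with no overlap between the arrays were led by a gene outside the lists of p53 targets. SULF2, which removes sulfate groups from heparan sulfate at the cell surface, was at 8.17, 8.36 and 8.49 (lowest, median and highest of 6 etoposide arrays) against 6.03, 6.45 and 6.61 for the 8 DMSO arrays. Its difference was 1.94 ± 0.079 (SE; adjusted p = 3.8e-37). NECTIN4, an adhesion protein of epithelia, rose by 1.63 ± 0.093, and SDC1, the proteoglycan also known as CD138 that marks plasma cells, by 1.61 ± 0.087. LCE1C, a structural protein of the outer skin, rose by 1.44 ± 0.081, and FHL2, a LIM domain cofactor of transcription, by 1.44 ± 0.084. The others were PHLDA3, TP53INP1, SESN1, MDM2 and CDKN1A, all among the p53 targets, with MAMDC4 (1.08 ± 0.076) and INKA2 (1.07 ± 0.073). All 12 largest falls were genes of the mitotic apparatus or its neighbours: PLK1, KIF20A, CENPE, CDC20, DLGAP5, CCNB1, CENPA, DEPDC1, ASPM, HMMR, KIF23 and KIF14, of which 11 are members of the mitosis list and DEPDC1 (-1.26 ± 0.082) is not.

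Of 58 measured p53 targets 44 rose, 0 fell and 14 did not pass. Their median difference was 0.46, beside -0.004 over all genes, of which 4.39% rose and 3.83% fell. Leaving out DMSO replicate 2 left the count at 44, and each concentration label alone gave 40 and 41.

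Among targets that arrest the cycle or restrain p53, 12 of 15 rose. CDKN1A encodes p21, which blocks cyclin-dependent kinases. Its 6 etoposide arrays were at 12.89, 12.97 and 13.08 (lowest, median, highest) and its 8 DMSO arrays at 11.78, 11.94 and 11.96. The groups were 0.93 apart at their nearest, and the difference was 1.07 ± 0.033 (SE; adjusted p = 2.5e-46), the smallest error among the leading rises. MDM2, the ligase that marks p53 for degradation, was at 9.33, 9.42 and 9.54 against 7.95, 8.33 and 8.43, a difference of 1.14 ± 0.077 (adjusted p = 1.3e-22). DMSO replicate 2 gave its lowest value. PPM1D, the phosphatase that reverses damage signalling, rose by 0.66 ± 0.058. PHLDA3, an inhibitor of AKT, had the largest rise of this list: 10.28, 10.38 and 10.47 under etoposide against 8.81, 9.12 and 9.29, a difference of 1.29 ± 0.061. TP53INP1, a cofactor in p53-dependent death and autophagy, rose by 1.25 ± 0.092, while the other of its 2 probe sets differed by 0.01. TRIM22 rose by 0.93 ± 0.062 and the kinase gene PLK3 by 0.74 ± 0.060. GADD45A, a stress sensor that binds CDK1, was already bright under DMSO and rose by 0.46 ± 0.050.

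Cell death targets rose in 12 of 16 cases. TP53I3, an oxidoreductase linked to oxidative stress, rose by 1.02 ± 0.051, with arrays at 9.55, 9.67 and 9.74 against 8.54, 8.62 and 8.75. PIDD1, which builds the platform that activates caspase-2, rose by 1.01 ± 0.063. Receptors for the death ligand TRAIL were among the members that rose. TNFRSF10B was at 10.76, 10.80 and 10.91 against 9.94, 9.98 and 10.11, a difference of 0.82 ± 0.036 (adjusted p = 2e-34), and the decoy receptor TNFRSF10D rose by 0.71 ± 0.053. FAS, the receptor of FAS ligand, rose by 0.66 ± 0.083 and TRIAP1, an inhibitor of apoptosome formation, by 0.70 ± 0.034. Of the p53 targets that act on the mitochondrial membrane, BAX rose by 0.49 ± 0.061, BBC3 (PUMA) by 0.35 ± 0.078 and PMAIP1 (NOXA) by 0.22 ± 0.050. The arrays of BBC3 and PMAIP1 overlapped between the groups, and PMAIP1 was not called with the 0.811 uM label alone, nor BBC3 with the 0.812 uM label alone.

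Of 27 targets in repair, metabolism and secretion 20 rose. SESN1, an inhibitor of the growth kinase mTORC1, was at 9.44, 9.55 and 9.61 under etoposide and at 8.17, 8.34 and 8.45 under DMSO, a difference of 1.21 ± 0.049 (adjusted p = 3.3e-37). Its relative SESN2 rose by 0.90 ± 0.047. Repair genes rose too: POLH, a polymerase that copies past lesions, by 0.90 ± 0.068, DDB2 and XPC, which recognise damaged bases, by 0.83 ± 0.040 and 0.71 ± 0.045, and RRM2B, a subunit of ribonucleotide reductase, by 0.80 ± 0.066. TIGAR, which lowers glycolytic flux, rose by 0.70 ± 0.048, and CYFIP2, a regulator of actin assembly, by 0.92 ± 0.059. GDF15, a secreted stress cytokine, did not pass at 6 h: its etoposide arrays were at 3.70, 3.91 and 4.24 and its DMSO arrays at 3.65, 3.73 and 4.03, which overlap, with a difference of 0.14 ± 0.071 (adjusted p = 0.26).

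**Figure D1:**
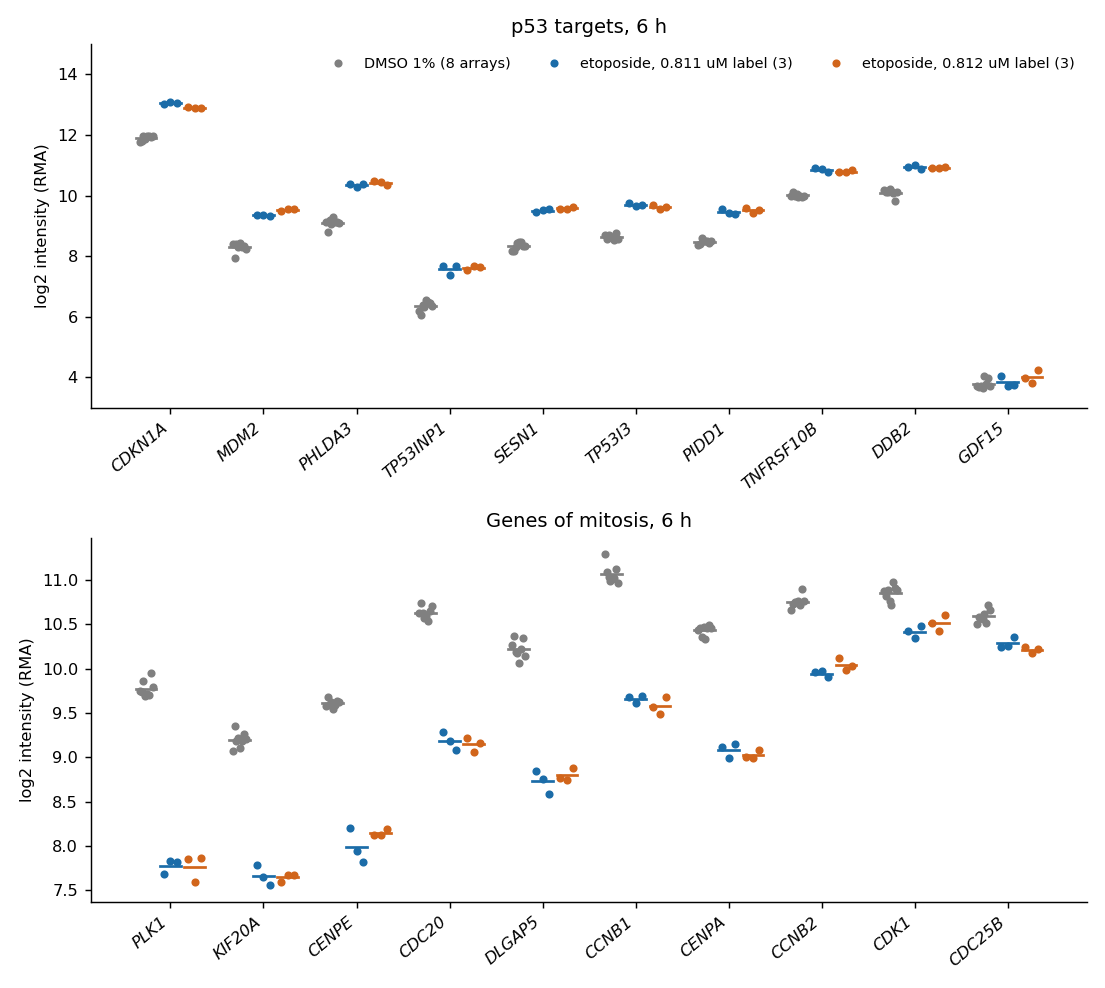
Log2 intensity of 10 p53 targets (top) and 10 genes of mitosis (bottom) on each array of 6 h. Points are arrays, bars are group means, grey is DMSO (8 arrays) and blue and orange are the 0.811 and 0.812 uM labels (3 arrays each). In 9 of the 10 p53 targets the etoposide arrays lie above the DMSO arrays, with GDF15 overlapping, and in all 10 genes of mitosis they lie below.

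All 33 measured genes of the mitosis list fell, with a median difference of -0.93, where 3.83% of all genes fell. For each of the 33, every etoposide array lay below every DMSO array, as it did for 324 of all 18239 genes. The size varied from -0.34 to -2.00 among them. PLK1, the kinase that drives entry into mitosis and spindle assembly, fell most. Its etoposide arrays were at 7.59, 7.83 and 7.86 and its DMSO arrays at 9.69, 9.75 and 9.95, so that the groups were 1.83 apart at their nearest. The difference was -2.00 ± 0.055 (SE; adjusted p = 2.3e-49).

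Kinesins and kinetochore genes followed. KIF20A, a kinesin of cytokinesis, was at 7.56, 7.66 and 7.79 against 9.07, 9.20 and 9.35, a difference of -1.54 ± 0.049. CENPE, the kinesin that moves chromosomes to the spindle equator, differed by -1.54 ± 0.052, KIF23 by -1.23 ± 0.075 and KIF14 by -1.21 ± 0.085. CENPA, the histone variant that marks centromeres, was at 8.99, 9.05 and 9.15 against 10.34, 10.46 and 10.49, a difference of -1.38 ± 0.043. The spindle proteins DLGAP5, ASPM and HMMR differed by -1.46 ± 0.051, -1.25 ± 0.059 and -1.24 ± 0.043.

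The regulators of mitotic exit and entry moved by unequal amounts. CDC20, which activates the ligase that ends metaphase, differed by -1.47 ± 0.044, with etoposide arrays at 9.06, 9.17 and 9.29 and DMSO arrays at 10.54, 10.63 and 10.74. Of its 3 probe sets, 2 fell and 1 had a difference of 0.03. CCNB1, cyclin B1, was at 9.49, 9.65 and 9.69 against 10.97, 11.04 and 11.29 and differed by -1.45 ± 0.053, whereas CCNB2, cyclin B2, differed by -0.76 ± 0.038. Their kinase partner CDK1 fell by 0.39 ± 0.039, AURKB, a kinase of the chromosomal passenger complex, by 0.44 ± 0.037, and CDC25B, a phosphatase that activates CDK1, by 0.34 ± 0.044, the smallest fall in the list. FOXM1, the transcription factor of many of these genes, differed by -0.43 ± 0.096 and was not called with the 0.811 uM label alone. The checkpoint kinase gene BUB1B fell by 1.13 ± 0.063.

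Promoters of the fallen genes were read from RefSeq (GRCh38.p14) to show where the core of the cell cycle homology region, TTTGAA (or TTCAAA on the other strand, any overlap allowed), lies. A promoter was matched for 27 of the 33 mitosis genes, and 14 of them (51.9%) held the motif in the 250 bases before the start site. Over all 14492 tested genes with a promoter, 10.8% held it. The share was 25.0% (65 of 260) among fallen genes with no overlap between the arrays, 7.33% (22 of 300) among risen ones, and 3.85% (1 of 26) in the list of G1/S and replication genes. A match to 6 letters is a description of the sequence and not a bound site. CCNB1 fell about as far as CDC20 and holds no match to these 6 letters in its window. Other forms of the element were not searched, so this does not show that CCNB1 lacks it. The 100 bases before the start site are printed for 4 genes with the motif and for CCNB1, and capitals mark the motif.
PLK1, chr16:23678789-23678888, plus strand: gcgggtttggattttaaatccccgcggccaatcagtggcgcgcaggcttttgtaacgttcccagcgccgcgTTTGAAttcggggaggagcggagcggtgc
CCNB2, chr15:59105046-59105145, plus strand: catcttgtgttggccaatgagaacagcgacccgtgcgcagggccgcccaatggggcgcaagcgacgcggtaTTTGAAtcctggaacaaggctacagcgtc
BUB1B, chr15:40160969-40161068, plus strand: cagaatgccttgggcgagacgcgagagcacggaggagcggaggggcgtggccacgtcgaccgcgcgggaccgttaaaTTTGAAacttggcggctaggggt
CENPA, chr2:26785956-26786055, plus strand: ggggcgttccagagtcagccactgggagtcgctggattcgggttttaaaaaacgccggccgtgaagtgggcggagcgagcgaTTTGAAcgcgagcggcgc
CCNB1, chr5:69167050-69167149, plus strand: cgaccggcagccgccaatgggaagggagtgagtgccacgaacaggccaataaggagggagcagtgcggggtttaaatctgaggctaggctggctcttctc
The first base of the motif lies 29 bases before the start site in PLK1 and in CCNB2, 23 in BUB1B and 18 in CENPA. These 4 genes differed by -2.00, -0.76, -1.13 and -1.38 respectively, so a motif at the same distance stood before a large and a smaller fall.

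Genes of the G1/S transition and of replication had smaller differences than those of mitosis: 15 of 30 fell, 2 rose and 13 did not pass, with a median of -0.16. Over all genes 3.83% fell and 4.39% rose. UHRF1, which guides maintenance of DNA methylation, differed by -0.59 ± 0.056, although its 3 probe sets ranged from -0.59 to 0.26. CCNE2 and CCNE1, the E cyclins, differed by -0.50 ± 0.118 and -0.40 ± 0.055. CCNE2 arrays overlapped, at 6.70, 7.04 and 7.43 under etoposide and 7.38, 7.58 and 7.78 under DMSO. The repressor gene E2F8 differed by -0.41 ± 0.113, and the helicase subunit genes GINS2 and MCM6 by -0.38 ± 0.057 and -0.35 ± 0.054. TYMS, which makes thymidylate, and PCNA, the sliding clamp of replication, rose by 0.18 ± 0.041 and 0.19 ± 0.043. With the replicate number as a block, 0 of the 30 rose. With the 0.812 uM label alone 8 of the 30 fell, and CCNE2 and E2F8 were not called.

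The drug's own targets are the 2 topoisomerase II isoforms. TOP2A, the isoform of proliferating cells, was at 11.15, 11.26 and 11.40 under etoposide and at 11.47, 11.73 and 12.20 under DMSO, a difference of -0.49 ± 0.093 (adjusted p = 4.4e-05) with no overlap. DMSO replicates 1 to 8 were, in that order, at 11.97, 12.20, 11.84, 11.76, 11.51, 11.55, 11.47 and 11.69. The part of this spread in the difference of TOP2A was not tested. TOP2B, the isoform present throughout the cycle, was at 11.68, 11.85 and 11.95 (lowest, median and highest) against 11.79, 11.89 and 11.96, a difference of -0.08 ± 0.043 (adjusted p = 0.28). Whether the 2 genes' differences differ was not tested. Of 14 measured topoisomerase and adduct removal genes, TDP1, which releases topoisomerase I from DNA, was the other that fell (-0.29 ± 0.058), and 0 rose. Over all genes 3.83% fell and 4.39% rose. TDP2, the enzyme that releases trapped topoisomerase II, had a difference of -0.005 ± 0.043 (adjusted p = 0.98).

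Of 13 measured kinases and sensors of the damage response 3 fell and 0 rose, where 3.83% of all genes fell. WEE1, the kinase that holds CDK1 inactive, was at 9.67, 9.87 and 10.00 against 10.23, 10.43 and 10.62 and fell by 0.55 ± 0.064. CHEK1, the kinase downstream of ATR, fell by 0.28 ± 0.049 and H2AX, the histone phosphorylated at breaks, by 0.21 ± 0.051, both with overlapping arrays. CHEK1 was not called with the 0.812 uM label alone, nor H2AX with the 0.811 uM label alone. ATM had a difference of -0.07 ± 0.095 and CHEK2 of 0.003 ± 0.070, neither called. In the list of double strand break repair genes, 0 of 18 passed in limma's test in either direction. An unadjusted p under 0.05 was found for 4 of them, beside 3486 of all 18239 genes. The list's median was -0.07, with differences from -0.31 to 0.14.

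Genes of signalling and stress outside the p53 lists gave smaller groups, to be read beside 4.39% of all genes that rose and 3.83% that fell. Of 29 immediate early genes and MAP kinase phosphatases 10 rose and 0 fell (median 0.10). The transcription factor genes KLF4, ATF3, EGR4 and FOSB rose by 0.65 ± 0.081, 0.59 ± 0.051, 0.59 ± 0.093 and 0.45 ± 0.106. The 7 probe sets of ATF3 ranged from 0.007 to 0.72 and the 2 of FOSB from 0.002 to 0.45. The count of risen genes was 6 with the 0.812 uM label alone, and the call of the phosphatase gene DUSP8 (0.48 ± 0.157, adjusted p = 0.040) was lost under most alternatives. IER3, an early response gene listed with NF-kB targets, rose by 0.80 ± 0.056, with arrays at 8.97, 9.11 and 9.21 against 8.11, 8.32 and 8.45. The rest of that list moved little: the chemokine gene CCL3 rose by 0.25 ± 0.061, CXCL10, PIM1 and BCL3 fell by 0.33 ± 0.105, 0.25 ± 0.066 and 0.18 ± 0.056, and 23 of 28 did not pass. None of the 3 falls was called with the 0.812 uM label alone, and 1 was without DMSO replicate 1 or 7 or without replicate 1 or 2 of the 0.811 uM label. With probe sets averaged per gene, 6 of the 28 rose in place of 2.

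The counts of the next lists stand beside 4.39% of all genes that rose and 3.83% that fell. Among 28 interferon-stimulated genes 3 rose and 0 fell: TRIM22, which is also on a p53 list, IFIT3 by 0.48 ± 0.108 and ISG15 by 0.24 ± 0.055. The last pair was not called with the 0.811 uM label alone. The BCL2 family outside the p53 lists had 2 of 14 members up, the death gene BCL2L11 (BIM) by 0.14 ± 0.043 and the survival gene BCL2L2 by 0.20 ± 0.066, and neither was called with either label alone. Without DMSO replicate 1 the count was 0. The 14 probe sets of BCL2L11 ranged from -0.157 to 0.145 and the 3 of BCL2L2 from -0.055 to 0.198. BAK1 had a difference of 0.25 ± 0.089 (adjusted p = 0.071).

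Few genes of the B cell lists passed at 6 h, beside 4.39% of all genes that rose and 3.83% that fell. SDC1, the plasma cell marker that rose by 1.61, is not on these lists. In B cell receptor signalling 1 of 19 rose and 2 fell; FCRLA (0.32 ± 0.108, adjusted p = 0.045) lost its call under most alternatives, and CR2, a complement receptor, fell by 0.23 ± 0.062 and was not called with the 0.811 uM label alone. BLNK, the adaptor below the receptor, was at 4.16, 4.33 and 4.65 under etoposide and at 3.76, 4.10 and 4.39 under DMSO, overlapping, with a difference of 0.24 ± 0.087 (adjusted p = 0.073). Among 18 B cell and plasma cell regulators, XBP1, a factor of the secretory programme, fell by 0.34 ± 0.054 and ETS1 by 0.19 ± 0.047. ID3, an inhibitor of E proteins, rose by 0.30 ± 0.075 and was not called with the 0.812 uM label alone. The largest difference of this list, 0.46, did not pass. Of 17 genes of amino acid and endoplasmic reticulum stress, 7 fell and 2 rose, and with either label alone 4 fell. SDF2L1, a chaperone cofactor, and PSAT1, an enzyme of serine synthesis, fell by 0.33 ± 0.053 and 0.28 ± 0.060, and the 2 that rose were SESN2, also a p53 target, and DDIT4 (0.45 ± 0.048), an inhibitor of mTORC1.

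MYC, the growth transcription factor, was at 9.78, 9.94 and 10.12 against 10.01, 10.22 and 10.29 and fell by 0.24 ± 0.061 with overlapping arrays. Of 21 genes of the MYC network and ribosome biogenesis 6 fell and 0 rose, among them DKC1 (-0.25 ± 0.038), a pseudouridine synthase; with the 0.811 uM label alone the count was 1, and MYC was not called. Of 17 histone genes 1 rose and 0 fell, where 4.39% of all genes rose and 3.83% fell. Cornified envelope and epithelial surface genes, a list drawn up because earlier results of these data had shown them rising, rose in 6 of 12 cases and fell in 0. Besides SULF2, NECTIN4 and LCE1C these were PLAU, the urokinase protease, by 0.98 ± 0.066, PODXL, a surface sialomucin whose 3 probe sets ranged from -0.17 to 0.59, by 0.59 ± 0.084, and LCE1B by 0.38 ± 0.082. In long genes, which are among the longest transcription units of the genome, 1 of 30 rose (DOCK8, 0.32 ± 0.096) and 1 fell (ATXN1, -0.23 ± 0.064). The 5 probe sets of DOCK8 ranged from -0.08 to 0.32. Over all genes 4.39% rose and 3.83% fell, and the median of the long genes was -0.005. With either label alone 0 of the 30 passed.

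**Figure D2:**
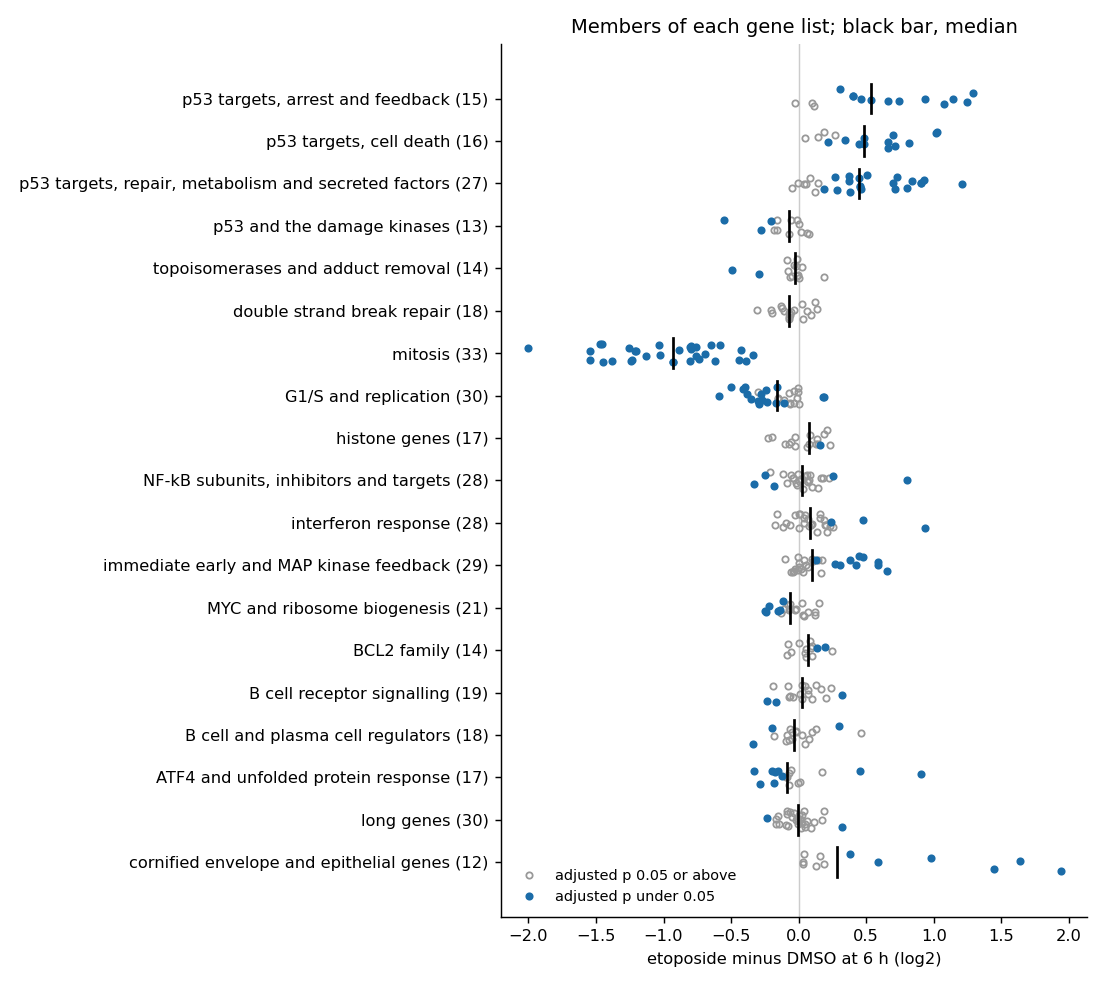
Difference between etoposide (6 arrays) and DMSO (8 arrays) at 6 h, in log2, for each measured member of 19 gene lists, whose sizes stand in parentheses. Filled points passed at an adjusted p under 0.05, open points did not, and black bars are list medians. All 33 mitosis genes lie below 0, 44 of 58 p53 targets are filled and to the right, and long genes gather around 0.

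The 2 concentration labels differ by 0.001 uM and serve as separate sets of 3 arrays. Between them limma called 0 of 58 p53 targets, 0 of 33 mitosis genes and 0 of the 24 largest rises and falls, beside 0.214% of all genes. At an unadjusted p under 0.05 the counts were 7, 1 and 3, beside 952 of all 18239 genes. An absence of calls in lists this small does not show that the labels agree. Against DMSO, CDKN1A differed by 1.15 with the 0.811 uM label and 1.00 with the other, and PLK1 by -2.00 and -2.01. Between the labels 39 genes did differ (0.214% of those tested), 36 of them lower with the 0.812 uM label. With 1 array of either label left out, the count was between 12 and 26.

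ASB2, a subunit of a ubiquitin ligase, differed most. Its arrays were at 7.50, 7.44 and 7.75 with the 0.811 uM label and at 6.49, 6.55 and 6.50 with the 0.812 uM label, while DMSO arrays lay between 6.67 and 7.14. One label thus stood above all DMSO arrays and the other below them, and the difference between the labels was -1.05 ± 0.136 (SE; adjusted p = 3.6e-07). P2RY8, a receptor of germinal centre B cells, differed by -0.81 ± 0.153, the serotonin receptor gene HTR2B by -0.69 ± 0.154 and the metallothionein gene MT1H by -0.64 ± 0.156.

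CYP1B1, a monooxygenase, was at 11.24, 11.40 and 11.23 against 10.58, 10.37 and 10.56, with DMSO at 10.51 to 11.02, a difference of -0.79 ± 0.104 (adjusted p = 3.6e-07). AHRR and TIPARP, known like CYP1B1 as targets of the aryl hydrocarbon receptor, differed by -0.55 ± 0.115 and -0.52 ± 0.095; these 2 were chosen after their values were seen. None of the 3 passed in the pooled comparison with DMSO. Of the 39 genes 15 were called in the pooled comparison, so their pooled value is a mean of unlike labels. Among them are PLAU, which rose by 1.24 with one label and by 0.72 with the other, the chemokine gene CCL1 (0.93 and 0.42), also chosen after its values were seen, and DDIT4 (0.60 and 0.30). The 3 genes that were higher with the 0.812 uM label were REG3A (0.50 ± 0.123), DDIT4L (0.23 ± 0.049) and ADAMTS1 (0.23 ± 0.049).

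**Figure D3:**
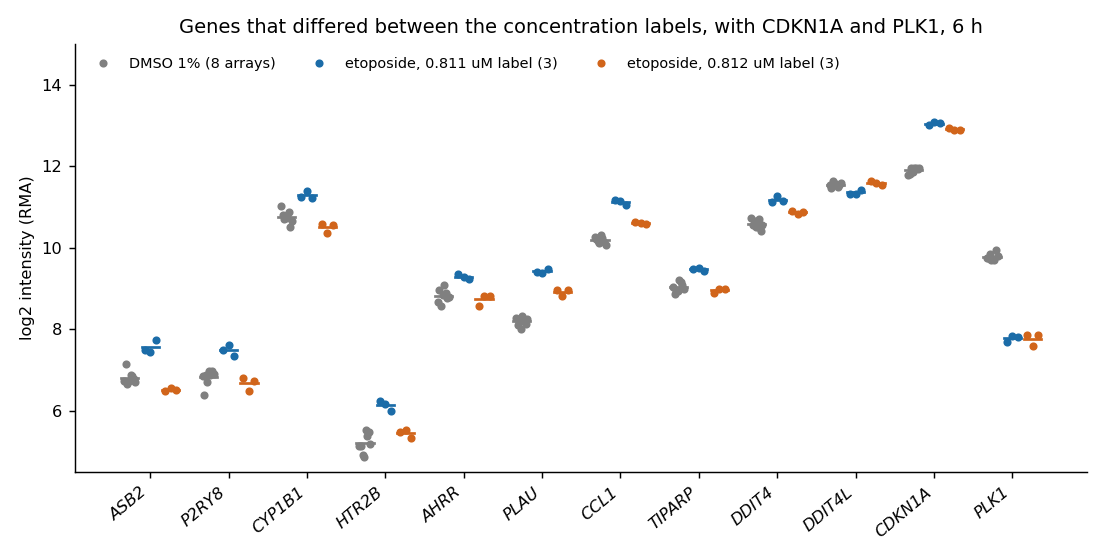
Log2 intensity on each array of 6 h for 10 genes that differed between the 2 etoposide labels, beside CDKN1A and PLK1, which did not pass. Points are arrays, bars are group means, grey is DMSO (8 arrays), blue the 0.811 uM and orange the 0.812 uM label (3 arrays each). In ASB2, CYP1B1, AHRR and TIPARP the 0.811 uM arrays lie above those of the other label, which lie near or below DMSO.

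Doxorubicin, an anthracycline that also poisons topoisomerase II, was on 3 arrays at 0.101 uM and 6 h. Its concentration differs from etoposide's, so drug and concentration cannot be told apart in this comparison. The direct contrast called 259 genes higher (1.42%) and 270 lower (1.48%) under etoposide. With 1 doxorubicin array left out it called 294, 190 and 295 genes in place of 529.

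Genes of mitosis were lower under etoposide in 20 of 33 cases and higher in 0. The list's median difference from DMSO was -0.93 under etoposide and -0.69 under doxorubicin, which share the DMSO arrays. DLGAP5 was between 8.59 and 8.88 on etoposide arrays and at 9.43, 9.33 and 9.35 on doxorubicin arrays, a difference of -0.60 ± 0.067 (adjusted p = 2.7e-10). ASPM differed by -0.59 ± 0.077, CCNB1 by -0.50 ± 0.069 and PLK1 by -0.46 ± 0.072. With 1 doxorubicin array left out, 14, 12 and 17 of the 33 were lower. Of 58 p53 targets 9 were lower under etoposide and 1 was higher. TNFRSF10B differed by -0.41 ± 0.048, whereas CDKN1A differed by -0.03 ± 0.043 (95% interval -0.12 to 0.05, adjusted p = 0.78) and MDM2 by -0.13 ± 0.101 (95% interval -0.33 to 0.07, adjusted p = 0.57). For these last 2, a p above the threshold does not show that the drugs act alike.

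Long genes were higher under etoposide in 18 of 30 cases and lower in 0. Their median difference from DMSO was -0.005 under etoposide and -0.33 under doxorubicin. VPS13B, a lipid transfer protein, was between 8.09 and 8.33 on etoposide arrays and at 7.44, 7.48 and 7.48 on doxorubicin arrays, a difference of 0.76 ± 0.096 (adjusted p = 2.9e-08). ZBTB20, a transcriptional repressor, differed by 0.76 ± 0.124, and SMYD3, a lysine methyltransferase, by 0.66 ± 0.072. With 1 doxorubicin array left out, 12, 17 and 11 of the 30 were higher. Over all genes, the other leading differences were HTR2B (0.93 ± 0.147), NAV3 (0.74 ± 0.139) and the calcium channel gene CACNA1D (0.74 ± 0.133), all higher under etoposide, and LMOD3 (-0.94 ± 0.168), the ERK phosphatase gene DUSP5 (-0.70 ± 0.125), ZNF605 (-0.68 ± 0.151), FKBP9 (-0.67 ± 0.135) and the kinase gene SGK1 (-0.66 ± 0.115), all lower. HTR2B also differed between the etoposide labels. Some DMSO arrays lay near the doxorubicin arrays in the dim genes LMOD3 and FKBP9. LMOD3 was at 4.91, 4.89 and 4.65 under doxorubicin and at 4.41 and 5.04 on DMSO replicates 1 and 2, and no other DMSO array exceeded 4.28. FKBP9 was at 5.16, 5.28 and 5.23 under doxorubicin and at 4.77 and 5.21 on those DMSO replicates, and no other DMSO array exceeded 4.72. The part of this in the difference between the drugs was not tested.

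Camptothecin, which traps topoisomerase I, was on 3 arrays at 0.31 uM and 6 h, again at its own concentration. Against it 3504 genes were higher (19.2%) and 4687 lower (25.7%) under etoposide, so a share of a list has to be read beside these. Long genes were higher under etoposide in 28 of 30 cases and lower in 0, with a median difference of 1.41. Their median difference from DMSO was -1.45 under camptothecin. The 5 genes that stood highest under etoposide were GRIN2A (4.20 ± 0.060), TENM3 (3.66 ± 0.089), SYT1 (3.55 ± 0.087), AOPEP (3.51 ± 0.066) and GPHN (3.49 ± 0.070). GRIN2A, a subunit of a glutamate receptor, was between 10.02 and 10.14 on etoposide arrays and at 6.03, 5.72 and 5.92 on camptothecin arrays, while its difference from DMSO under etoposide was 0.03.

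In the other direction stood ARC (-2.97 ± 0.135), an early gene of neurons, THAP2 (-2.64 ± 0.144), TENT5C (-2.60 ± 0.124), RASL11A (-2.52 ± 0.133) and C1orf162 (-2.46 ± 0.123). Of 58 p53 targets 36 were lower under etoposide than under camptothecin and 6 higher. TP53INP1 differed by -1.41 and PHLDA3 by -1.08. Of the 15 targets that arrest the cycle or restrain p53, 0 were higher, so MDM2, with a difference of 0.15, was not called. FAS differed by 0.13, with overlapping arrays: 10.47 to 10.70 under etoposide and 10.68, 10.39 and 10.32 under camptothecin. Immediate early genes were lower in 23 of 29 cases, with a median of -0.78. Mitosis genes divided, with 14 higher and 5 lower under etoposide and a median of 0.06.

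**Figure D4:**
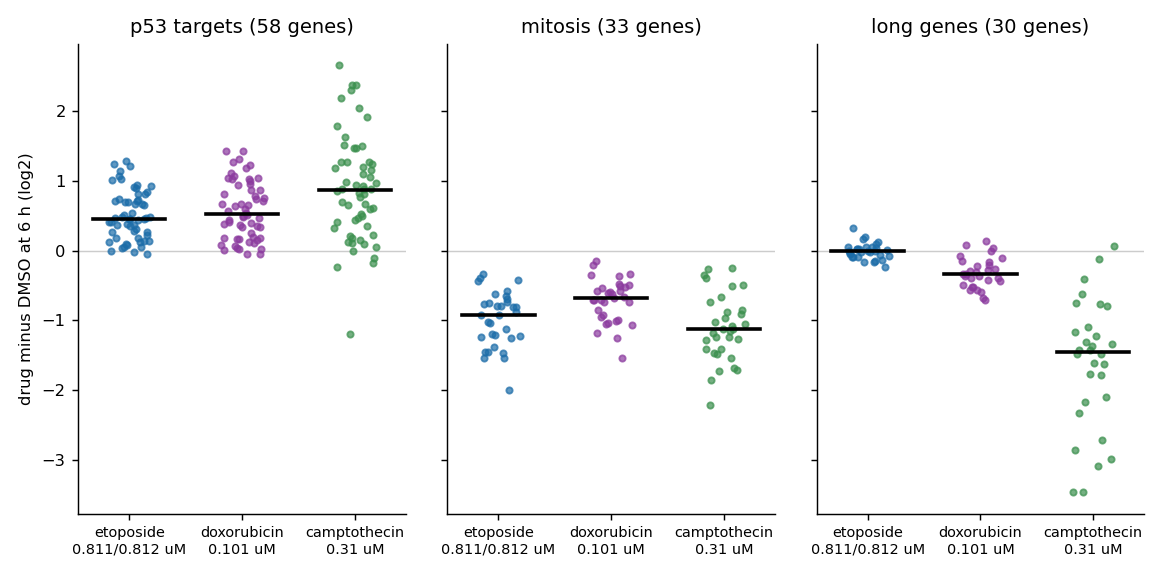
Difference from DMSO at 6 h, in log2, of each p53 target (58 genes), mitosis gene (33) and long gene (30) under etoposide (6 arrays), doxorubicin (3) and camptothecin (3), all against the same 8 DMSO arrays. Points are genes and black bars are medians. Long genes have medians of -0.005, -0.33 and -1.45 in that order, and mitosis genes of -0.93, -0.69 and -1.13.

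At 24 h the same drug and labels were on 6 arrays, with 8 DMSO arrays. One etoposide array and 1 DMSO array of 24 h were of low signal. In the contrast of the difference from DMSO at 24 h with that at 6 h, 33 genes passed (0.181%), 19 upward and 14 downward. Without the low-signal arrays of 24 h 97 passed, and without those of 12 and 24 h 2113 did (942 upward and 1171 downward), so the count depends on these arrays.

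GDF15 changed most between the times. It differed from DMSO by 0.14 at 6 h and 3.01 at 24 h, a change of 2.87 ± 0.36 (SE; adjusted p = 9.6e-10). The cornified envelope genes LCE1C, LCE1F and LCE1B changed by 2.79 ± 0.27, 2.09 ± 0.29 and 1.76 ± 0.23; LCE1C stood at 1.44 above DMSO at 6 h and at 4.23 at 24 h. BLNK, with 0.24 at 6 h, was 2.58 above DMSO at 24 h, a change of 2.34 ± 0.23 (adjusted p = 5.7e-16). Of the genes that had risen at 6 h, NECTIN4 changed by a further 1.71 ± 0.34, SULF2 by 1.53 ± 0.34, PODXL by 1.54 ± 0.32, TP53I3 by 1.28 ± 0.27, GADD45A by 1.06 ± 0.27 and TRIM22 by 0.96 ± 0.24. CDKN1A was 1.07 above DMSO at 6 h and 1.38 at 24 h, and its change did not pass.

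The largest downward changes were in HK2, the first enzyme of glycolysis (-0.23 at 6 h and -1.87 at 24 h), AFF3 (0.02 and -1.30), INSM1 (-0.13 and -1.39), IMPA2 (-0.20 and -1.43) and SKP2, which targets p27 for degradation (-0.15 and -1.35). E2F1, the activator of S phase genes, also passed (-0.24 and -1.13). Of 58 p53 targets 4 changed upward, or 36 upward and 1 downward without the low-signal arrays of 12 and 24 h. Of 33 mitosis genes limma called 0, or 19 downward without those arrays. With all arrays 14 of the 33 had an unadjusted p under 0.05, beside 782 of all 18239 genes. The median difference of the mitosis genes from DMSO was -0.93 at 6 h and -1.46 at 24 h.

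**Figure D5:**
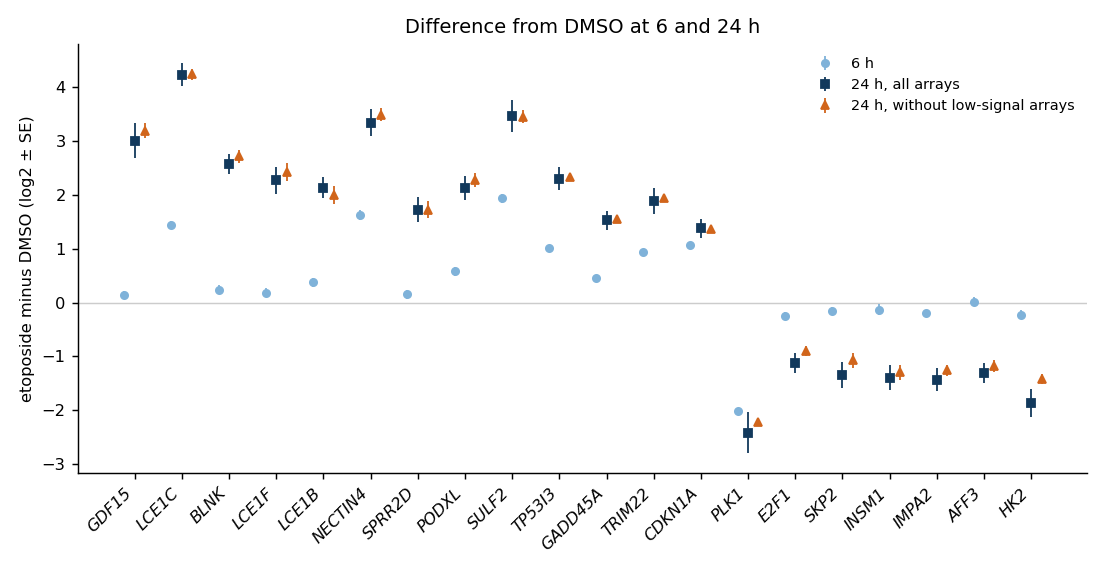
Difference between etoposide and DMSO, in log2 with the standard error of the fit, at 6 h (light circles), at 24 h with all arrays (dark squares) and at 24 h without low-signal arrays (orange triangles), for 20 genes. GDF15 and BLNK lie near 0 at 6 h and at 3.01 and 2.58 at 24 h, while PLK1 is at -2.00 and -2.42.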

How the data were processed

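Log2 intensities on a table of 282 Affymetrix HT HG-U219 arrays were deposited by the authors, who made them with RMA per the submitters' processing notes; its version and settings are not given in the sources used here. RMA as generally run draws array distributions together and compresses differences of dim probe sets. Of 49386 probe sets, 93 are controls, 45253 carry 1 gene symbol in the platform annotation, 1327 several, and 2713 are not listed. Where several probe sets shared a symbol (11822 genes), the brightest on average across the series was kept, which left 18239 genes. No detection calls were used, so dim genes stayed in.

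Group means over the 94 arrays of 6 h were fitted with limma 3.58.1 in R 4.3.3 (eBayes with a trend), pooling both etoposide labels. The 24 h contrast used all 282 arrays. The Benjamini-Hochberg adjustment ran over all genes of a contrast, and a gene was called under 0.05. Low signal means that an array's upper quartile was below 8, or that its ACTB 3' probe sets exceeded the 5' ones by over 2. The fit was tested on simulated data. The number of arrays limits the precision.

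The members and gene lists were chosen with earlier results of these data known. Named genes are the 12 largest rises and falls whose arrays do not overlap, up to 5 called members per list and direction, 13 genes always given, and the 5 largest differences each way in other contrasts. Others were added for their roles. Of 140 genes followed, 98 had more than 1 probe set; in 78 all sets moved one way, and in 0 did a set pass in the opposite direction. Replicate numbers were checked for pairing. Alternatives were a repeated quantile normalization, a filter on the dimmest 40% of genes, means of all probe sets, each label alone, the compared groups alone, array weights, the replicate number as a block, and each array left out. Promoter sequences are RefSeq's (GRCh38.p14).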

Additional observations from a re-analysis of the deposited data

Results flagged for a closer look

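Among the genes named, 280 sets of arrays (6 etoposide or 8 DMSO arrays per gene) were searched for a lone value far from its nearest neighbour, and 15 were found; chance gives about 1 in 20. Of these, 9 were DMSO replicate 2. It was lowest in SULF2 (6.03, next 6.34), NECTIN4 (5.37, next 5.68), MDM2 (7.95, next 8.23), POLH (7.25, next 7.61), P2RY8 (6.39, next 6.71) and SKP2 (6.53, next 6.89), and highest in ASB2 (7.14, next 6.88), FKBP9 (5.21, next 4.77) and INSM1 (5.31, next 4.77). DMSO replicate 7 was lowest in DDB2 (9.82, next 10.1) and highest in CCNB2 (10.9, next 10.8) and VPS13B (8.42, next 8.21), and DMSO replicate 3 was highest in ISG15 (10.5, next 10.4). Of etoposide arrays, replicate 1 of the 0.811 uM label was highest in MAMDC4 (7.94, next 7.66) and replicate 2 in INKA2 (8.67, next 8.32).

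The effect of etoposide differed between 24 and 6 h, by the test of the difference itself, in SULF2 (1.53), NECTIN4 (1.71), LCE1C (2.79), TP53I3 (1.28), TRIM22 (0.96), GDF15 (2.87), BLNK (2.34), LCE1B (1.76), PODXL (1.54), GADD45A (1.06), SPRR2D (1.57) and LCE1F (2.09), and downward in HK2 (-1.64), AFF3 (-1.32), INSM1 (-1.26), IMPA2 (-1.23), SKP2 (-1.20) and E2F1 (-0.88).

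The 2 concentration labels differed, by the direct test, in ASB2 (-1.05), P2RY8 (-0.81), CYP1B1 (-0.79), HTR2B (-0.69), MT1H (-0.64), AHRR (-0.55), TIPARP (-0.52), PLAU (-0.52), CCL1 (-0.52) and DDIT4 (-0.30), and upward in REG3A (0.50), DDIT4L (0.23) and ADAMTS1 (0.23).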

How the results depend on the processing

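The count of 1499 genes under etoposide was 1218 to 1565 with 1 array left out (lowest without DMSO replicate 2), 1128 and 821 with the 0.811 and 0.812 uM label alone, and 1576 to 1841 under the other alternatives. The replicate block gave 1663, 524 against doxorubicin, 8178 against camptothecin, 33 between the labels and 6 for the change to 24 h, 6 upward and 0 downward. At 6 h only DMSO has replicate numbers 4 to 8, each on a single array. The block fit at 6 h therefore compares etoposide with DMSO replicates 1 to 3 alone, replicate 2 among them. Deviations of same-numbered arrays correlated between -0.058 and 0.034 over the etoposide labels and DMSO at 6 h. They correlated between -0.104 and 0.115 with doxorubicin, between -0.074 and 0.071 with camptothecin and between -0.195 and 0.284 at 24 h. Of 9 pairs in each set, 0, 1, 0 and 2 were over 0.1, in that order. Only replicates 1 to 3 could be compared, so these values do not settle whether a replicate number marks a shared block. Between the labels the count was 12 to 26 with 1 array left out and 111 with the compared groups alone. Against doxorubicin it was 190 to 515 and 889; without the dimmest 40% of genes it was 418, divided 273 higher to 145 lower where the main fit had 259 to 270. Against camptothecin it was 7244 to 8078 with 1 array left out. For the change to 24 h it was 28 to 32 with 1 array left out, 97 without low-signal arrays of 24 h, 2113 without those of 12 and 24 h (an alternative chosen after seeing the data) and 1075 with the compared groups alone. The cause was not tested. In 140 single genes and 3069 alternative values, 126 lost and 27 gained a call and 0 reversed. With the replicate block, BBC3, E2F8, TYMS, PCNA, CCL3, DUSP8, ISG15, PIM1, BCL3, ATXN1, E2F1 and RASL11A were not called at 6 h and BAK1 and LMOD3 were, and the p53 count was 40 and the mitosis count 33.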
